A study of Arabidopsis thaliana with 76 samples.

Results

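Heat-associated chaperones work with smaller partner proteins and with regulators of transcription, and 7 such genes were followed across 76 RNA-seq libraries from *Arabidopsis thaliana* seedlings, WT (Col-0) or starch mutants. They are the FKBP-type immunophilins *ROF1* (AT3G25230) and *ROF2* (AT5G48570), the HSP70-HSP90 organizing protein *HOP3* (AT4G12400), the nucleotide exchange factor *FES1A* (AT3G09350), the BCL-2-associated athanogene *BAG6* (AT2G46240), the heat shock factor binding protein *HSBP* (AT4G15802), and the transcriptional coactivator *MBF1C* (AT3G24500). The members were taken by their locus identifiers, as 7 of the 33557 genes listed in each library, with earlier results of these data known. Each of the 7 had a value in all 76 libraries and passed the filter on low counts in each of the 3 statistical fits. In the deposited TAIR10 coordinates, counted from 1, the genes lie with *ROF1* at chr3:9188181-9191419, *ROF2* at chr5:19690542-19693845, *HOP3* at chr4:7338659-7341363, *FES1A* at chr3:2871045-2873312, *BAG6* at chr2:18986133-18989947, *HSBP* at chr4:8986615-8988452, and *MBF1C* at chr3:8918679-8919683.

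The seedlings were grown in short days (8 h light and 16 h dark) under 170 umol light at a constant temperature. WT at 22°C and at 27°C was sampled once at each of 8 times, from ZT−4 (4 h ahead of lights on) until ZT16. WT and the T-DNA mutant *ss4-1* at 17°C, which carries an insertion in a soluble starch synthase gene, have 2 libraries at each of these times. Further starch mutants were grown at 17°C and taken at ZT0 and at ZT2 only, again with 2 libraries per point: *pgm* (which lacks plastid phosphoglucomutase), *ss3/ss4*, and *ss3/ss4/pgm*. WT in liquid culture at 22°C and at 27°C was sampled at ZT1 with 2 libraries per condition: untreated, ethanol as a mock, 30 uM DCMU, or 50 uM DBMIB, the chemicals having been given at ZT−1. DCMU and DBMIB both block photosynthetic electron transport, DCMU before the plastoquinone pool and DBMIB after it.

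HSP70 and HSP90 fold client proteins in cycles of ATP hydrolysis, and cochaperones set the pace and the direction of these cycles. HOP proteins hold HSP70 and HSP90 together so that a client can be passed between them, FES1 proteins release ADP from HSP70, and BAG proteins bind HSP70 through a conserved domain. ROF1 and ROF2 bind HSP90.1 through tetratricopeptide repeats and act with the heat shock factor HSFA2 after heat. HSBP binds heat shock factors and lowers their activity, and MBF1C bridges transcription factors and the transcription machinery. *ROF1*, *HOP3*, *FES1A*, *BAG6*, and *MBF1C* are each known for a part in the tolerance of heat.

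Levels are given as TPM (transcript abundance scaled by gene length and library total, as calculated by the authors), which can be set side by side between genes. The tests used the deposited counts where there are 2 libraries per group. A log2 fold change (log2FC) is followed by its standard error, and adjusted p is the value of edgeR's quasi-likelihood test after Benjamini-Hochberg adjustment (all genes of a fit together, threshold 0.05). Nothing in the labels says that the libraries of a group came from separate cultures, so p-values measure the spread between these pools of seedlings, which may be technical. In whole seedlings, fewer cells of a type and less RNA per cell cannot be told apart.

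Total counts per library ranged from 5556053 to 13495113 in WT and *ss4-1* at 17°C, from 3204754 to 11823418 in the other mutants, and from 3526887 to 19679912 in liquid culture. The depth of the libraries at 22°C and 27°C with TPM alone is unknown. The green-tissue marker *CA1* was at 315 TPM or more in each library and the root marker *PYK10* at 398 or more, while the seed storage gene *CRA1* had a median of 0.0998 and reached 34.9. Other markers varied more, the root marker *TIP2;3* from 1.07 to 134 TPM and *RCI3* from 2.63 to 124. The median of *CA1* was 906 in liquid culture and 2034 over all 76 libraries. Tissue make-up was thus not shown to be even across the libraries. *SS3* was at 5.33 to 7.61 TPM in the *ss3/ss4* and *ss3/ss4/pgm* libraries and at 28.1 to 34.2 in WT at the same times, and *PGM* was at 4.32 to 13 in the *pgm* and *ss3/ss4/pgm* libraries and at 55.2 to 63.6 in WT. At ZT0 *SS4* was at 20.4 and 21.5 TPM in WT, 18.2 and 18.4 in *ss4-1*, and 14.0 and 16.1 in *ss3/ss4*, and at ZT2 at 14.0 and 14.7, 14.5 and 14.7, and 17.5 and 18.8. It was lower in *ss3/ss4/pgm* (7.74 to 10.2 TPM at the 2 times) and as low in *pgm* (6.24 to 10.3), which is not labelled with a change in *SS4*, so its transcript does not check these labels.

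The promoters of heat-associated genes often carry heat shock elements, inverted repeats of the unit GAA that heat shock factors bind. The 300 bases from 250 before to 50 after the RefSeq gene start (TAIR10.1) were searched on both strands for 3 alternating units, GAANNTTCNNGAA or TTCNNGAANNTTC. Of the members only *HOP3* held this element, against 132 of 27443 promoters of the same length (0.481%). With 2 units (GAANNTTC or TTCNNGAA, which the longer element contains), *ROF1*, *HOP3*, *BAG6*, and *FES1A* held a match, and 19.3% of all promoters did. The matches with 8 flanking bases are shown so that the units can be compared, with the units and the bases between them in capitals.
HOP3 (3 units, chr4:7341319-7341347, minus strand): aaaaattcGAAATTTCGAGAActctcttg
HOP3 (2 units, chr4:7341353-7341376, minus strand): ctacaaaaGAACATTCtcgacata
ROF1 (2 units, chr3:9188114-9188137, plus strand): catctgtgTTCTCGAAccatcttt
BAG6 (2 units, chr2:18986091-18986114, plus strand): aacgaagaGAAAATTCcagatttt
FES1A (2 units, chr3:2870899-2870922, plus strand): aaggtaaaTTCAAGAAaggcttat
The longer match of *HOP3* begins 24 bases after the RefSeq gene start and that of *ROF1* begins 26 bases after it. The matches of *BAG6* and *FES1A* lie before it. For *ROF1* (9188096), *FES1A* (2870970), *MBF1C* (8918267), and *HSBP* (8988661, minus strand) the RefSeq start differs from the deposited one given above. By its deposited start the match of *ROF1* lies before the gene. These letters were not found in the windows of *ROF2*, *HSBP*, and *MBF1C*. A match is a description of the letters and not a site of binding.

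The time courses of WT at 22°C and 27°C show when in the day each gene was high. In 6 of the 7 genes the level at 27°C was highest at ZT1, 1 h after lights on, and in 5 of them it was also highest at ZT1 at 22°C. At ZT1, TPM was at least 2-fold that at ZT0 for 5 members at 22°C and for 6 at 27°C (on the log2 scale of TPM + 1), against 8.80% and 11.3% of the 18155 genes that reached 5 TPM in any of these libraries. There is 1 library per point, so these are differences between libraries with no replicate check.
The immunophilin pair differed in how low its night level was. *ROF1* went from 40.2 TPM at ZT0 to 156 at ZT1 at 22°C, and from 39.9 to 312 at 27°C. *ROF2* went from 2.44 to 115 TPM at 22°C and from 6.15 to 591 at 27°C. *ROF2* was thus 47.1 and 96 times its ZT0 level at ZT1, and *ROF1* 3.87 and 7.83 times. At ZT8, at the end of the light period, *ROF2* was down to 4.07 TPM at 22°C and 28.9 at 27°C, and *ROF1* to 70.5 and 101.
At 22°C *HOP3* was at 7.41 TPM at ZT0, at 86.5 at ZT1, and back at 7.42 by ZT8. At 27°C the same hours gave 27.2, 295, and 30.4. *FES1A* went from 11.5 to 162 TPM between ZT0 and ZT1 at 22°C, and from 14.5 to 174 at 27°C. The fold of *FES1A* between ZT0 and ZT1 was therefore close at the 2 temperatures (14 and 12), and so were its levels.
*MBF1C* had the highest level of the 7 at ZT1, at 446 TPM at 22°C and 702 at 27°C, from 21.1 and 76 at ZT0. *BAG6* was the lowest of the 7 at ZT0 and ZT1. At 22°C it went from 1.57 TPM (ZT0) to 4.00 (ZT1) and 1.91 (ZT2), and its highest point was 5.25 (ZT8). At 27°C these values were 4.09, 19.6, 4.30, and 6.59 TPM, and ZT1 was the highest. *HSBP* moved least, between 127 and 175 TPM at 22°C and between 106 and 191 at 27°C, and was at 150 and 126 at ZT1.

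**Figure D1:**
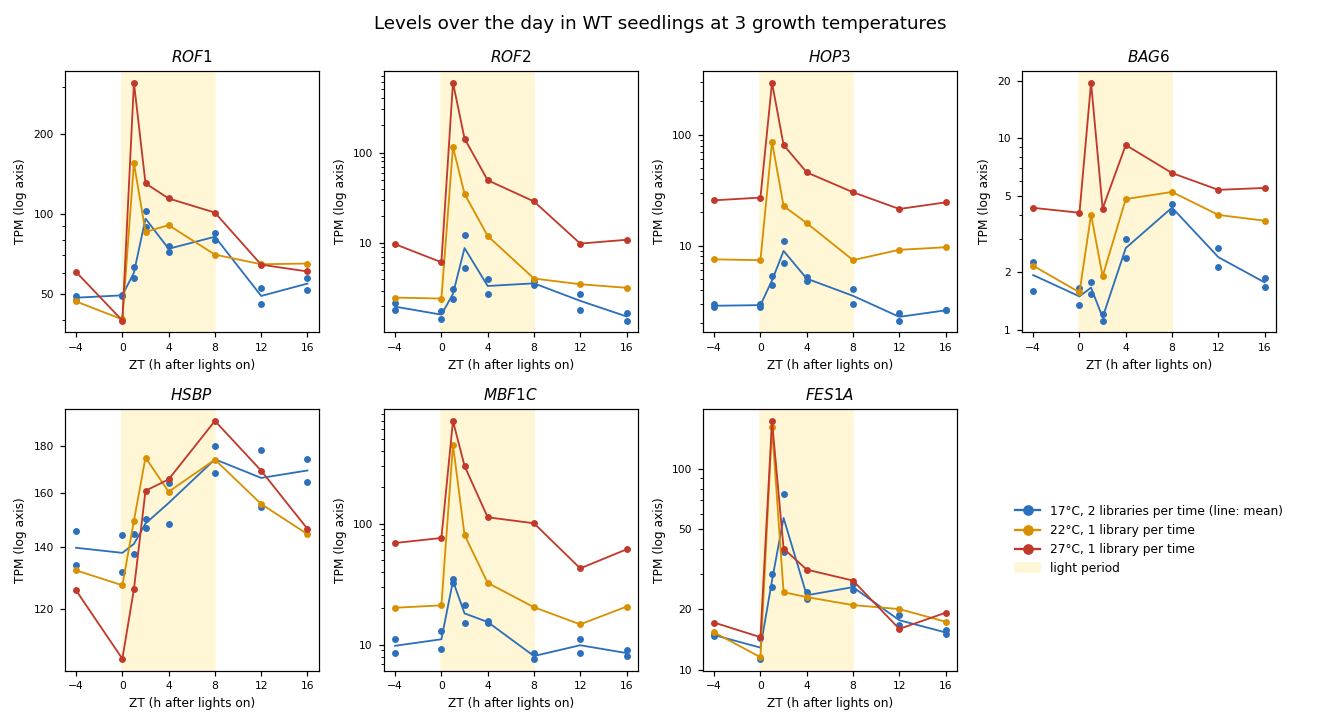
TPM (log axis) of each gene against the time of day (ZT, in h after lights on) in WT at each growth temperature (17°C, 22°C, or 27°C), with 1 point per library and lines through the mean of each time. At 27°C the level at ZT1 is the highest of the day in 6 genes, whereas *HSBP* stays between 106 and 191 TPM.

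The warmer growth temperature was compared at the 2 times on either side of dawn. At ZT1, 3 of the 7 genes were at least 2-fold higher at 27°C than at 22°C (2.16% of all genes were), and 3 were at ZT0 (2.13%). The sets differ. At ZT1 the log2 ratio of TPM + 1 was 2.35 for *ROF2*, 2.04 for *BAG6*, 1.76 for *HOP3*, 1.00 for *ROF1* (just under the 2-fold limit on this scale), 0.65 for *MBF1C*, 0.10 for *FES1A*, and −0.24 for *HSBP*. At ZT0 it was 1.80 for *MBF1C*, 1.74 for *HOP3*, 1.05 for *ROF2*, 0.99 for *BAG6* (also just under the limit), 0.31 for *FES1A*, −0.01 for *ROF1*, and −0.26 for *HSBP*. Before lights on *MBF1C*, *HOP3*, and *ROF2* were past the 2-fold limit, and *ROF1* was at the same level at both temperatures.

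At 17°C, where each time has 2 libraries, the highest level of each gene but *HSBP* was under that at 22°C (not tested across these tables) and, for 4 genes, came later. *ROF1*, *ROF2*, *HOP3*, and *FES1A* were highest at ZT2 in both replicates, *MBF1C* at ZT1, and *BAG6* at ZT8. The 2 libraries of *FES1A* gave 14.4 and 11.3 TPM before dawn (ZT0), then 29.9 and 25.8 (ZT1), then 38.8 and 75.4 (ZT2). Those of *ROF2* gave 1.45 and 1.80 TPM, then 3.09 and 2.41, then 5.34 and 12.3. At ZT2 the replicates of both genes lay further apart than the step from ZT1 to ZT2 in replicate 1, with replicate 2 higher, but they did not overlap with the earlier times.
*HOP3* was at 3.01 and 2.82 TPM at ZT0 and at 7.02 and 10.9 at ZT2, and *ROF1* at 49.3 and 49.8 and at 89.6 and 103. *MBF1C* gave 12.9 and 9.31 TPM (ZT0), 34.9 and 32.4 (ZT1), and 15.0 and 21.2 (ZT2). Its ZT1 libraries lie above those of the other 7 times.
From ZT0 to ZT1, 3 of the 7 genes rose (7.74% of all genes tested did): *MBF1C* (log2FC 1.63 ± 0.22, adjusted p = 4.36e-06), *FES1A* (1.25 ± 0.21, adjusted p = 7.1e-05), and *HOP3* (0.76 ± 0.22, adjusted p = 0.015). The call of *HOP3* was lost without replicate 1 at ZT0 (0.77, adjusted p = 0.0737), replicate 2 at ZT0 (0.73, adjusted p = 0.0994), or replicate 1 at ZT1 (0.61, adjusted p = 0.168).
From ZT0 to ZT2, 5 rose (15.9% of all genes): *ROF2* (2.43 ± 0.33, adjusted p = 2.42e-06), *FES1A* (2.20 ± 0.20, adjusted p = 4.45e-09), *HOP3* (1.68 ± 0.20, adjusted p = 3.68e-07), *ROF1* (0.97 ± 0.11, adjusted p = 9.89e-08), and *MBF1C* (0.72 ± 0.23, adjusted p = 0.018). *MBF1C* no longer passed without replicate 2 at ZT0 (0.55, adjusted p = 0.18) or replicate 2 at ZT2 (0.51, adjusted p = 0.233).
A comparison of ZT2 with ZT1 was added after *MBF1C* was seen to be highest at ZT1. *ROF1*, *ROF2*, *HOP3*, and *FES1A* were higher at ZT2 (5.98% of all genes were), and *MBF1C* was lower (−0.91 ± 0.21, adjusted p = 0.00405, with 5.42% of all genes lower). Without replicate 2 at ZT2 the differences of *ROF2* (0.98, adjusted p = 0.082), *HOP3* (0.57, adjusted p = 0.136), and *FES1A* (0.37, adjusted p = 0.163) did not pass, and without replicate 1 at ZT2 that of *MBF1C* did not (−0.76, adjusted p = 0.0686).
From ZT2 to ZT8 the 5 genes that had risen by ZT2 fell (13.8% of all genes did), by 1.49 for *HOP3*, 1.45 for *ROF2*, 1.23 for *FES1A*, 1.16 for *MBF1C*, and 0.32 for *ROF1* on the log2 scale. Without replicate 2 at ZT2 the change was −0.67 for *ROF2* (adjusted p = 0.136) and −0.24 for *ROF1* (adjusted p = 0.216), and without replicate 1 at ZT8 it was −0.25 for *ROF1* (adjusted p = 0.175). *BAG6* ran the other way. It was at 1.21 and 1.12 TPM at ZT2, below its libraries at all other times, and at 4.13 and 4.57 at ZT8 (log2FC 1.87 ± 0.22, adjusted p = 2.84e-07, with 13.2% of all genes higher). *HSBP* stayed between 132 and 180 TPM in these 16 libraries, and its changes did not pass in any of these comparisons.

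Relatives of the members and their partners were taken from lists fixed with earlier results of these data known. From ZT0 to ZT2 in WT at 17°C, 2 of 12 relatives in the HOP, BAG, MBF1, and FES1 families rose and 3 fell, with *FES1B* (−2.46 ± 0.63, adjusted p = 0.00367) and *FES1C* (−0.99 ± 0.19, adjusted p = 0.000201) the largest changes. Of all genes tested 15.9% rose and 15.9% fell. Of 11 other cochaperones tested, 6 rose and 1 fell. Of 13 partner chaperones and heat shock factors 7 rose, among them *HSP70* (3.53 ± 0.35, adjusted p = 1.73e-08), which was at 4.63 and 4.25 TPM at ZT0 and at 39.2 and 63.2 at ZT2, and the heat shock factor *HSFA2* (3.60 ± 0.48, adjusted p = 2.33e-06). The median log2FC was 0.97 over the members, 0.10 over the relatives, 0.63 over the cochaperones, 0.76 over the partners, and −0.001 over all genes. Of 7 tissue markers 1 rose and 1 fell, the seed storage gene *CRA1* (6.57 ± 1.53, adjusted p = 0.00168) and the root marker *TIP2;3* (−1.48 ± 0.40, adjusted p = 0.0059). *CRA1* was high in replicate 1 alone, at 16.9 TPM at ZT2 against 0.118 in replicate 2. The 5 members that rose were higher in replicate 2. The part of tissue make-up in their rise was not tested.

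The comparison of *ss4-1* with WT asks whether a plant with a changed starch synthase has other levels of these genes, and at what time of day. At ZT2, 6 of the 7 genes were overexpressed in the libraries labelled *ss4-1*, against 0.449% of all genes tested. Both *ss4-1* libraries lay above both WT libraries in TPM for these 6, as they did for 16.3% of 16223 genes. The largest difference was that of *ROF2*, at 5.34 and 12.3 TPM in WT and 132 and 113 in *ss4-1* (log2FC 3.80 ± 0.25, adjusted p = 2.8e-10). *ROF1* was at 89.6 and 103 TPM in WT and at 134 and 134 in *ss4-1* (0.45 ± 0.10, adjusted p = 0.0457). The difference of *ROF1* is small beside that of *ROF2*, and its call was lost without replicate 1 (0.37, adjusted p = 0.674) or 2 (0.53, adjusted p = 0.0884) of WT, without replicate 1 (0.39, adjusted p = 0.269) or 2 (0.50, adjusted p = 0.187) of *ss4-1*, and in 8 of its 10 alternatives in all, among them the replicate number as a block (0.45, adjusted p = 0.0507).
*HOP3* was at 7.02 and 10.9 TPM in WT and at 44.7 and 47.5 in *ss4-1* (2.30 ± 0.17, adjusted p = 1.34e-09). *FES1A* was at 38.8 and 75.4 in WT and at 146 and 164 in *ss4-1* (1.48 ± 0.17, adjusted p = 5.23e-06). *BAG6*, which was at its lowest of the day in WT, was at 1.21 and 1.12 TPM there and at 4.57 and 5.96 in *ss4-1*, the highest of the day in both *ss4-1* replicates (2.27 ± 0.22, adjusted p = 2.84e-07).
*MBF1C* was at 15.0 and 21.2 TPM in WT and at 67.5 and 96.3 in *ss4-1* at ZT2 (2.14 ± 0.20, adjusted p = 1.03e-07). At ZT1 it was at 34.9 and 32.4 in WT and at 57.5 and 56.5 in *ss4-1*, which did not pass (0.75 ± 0.19, adjusted p = 0.352). In *ss4-1*, *MBF1C* was higher at ZT2 than at ZT1 in both replicates, the reverse of WT, but this step did not pass (0.48 ± 0.18, adjusted p = 0.0784, and 0.74 with adjusted p = 0.018 without replicate 1 of *ss4-1* at ZT2). *HSBP* was at 150 and 147 TPM in WT and at 123 and 127 in *ss4-1* at ZT2 (−0.16 ± 0.12, adjusted p = 0.884).

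**Figure D2:**
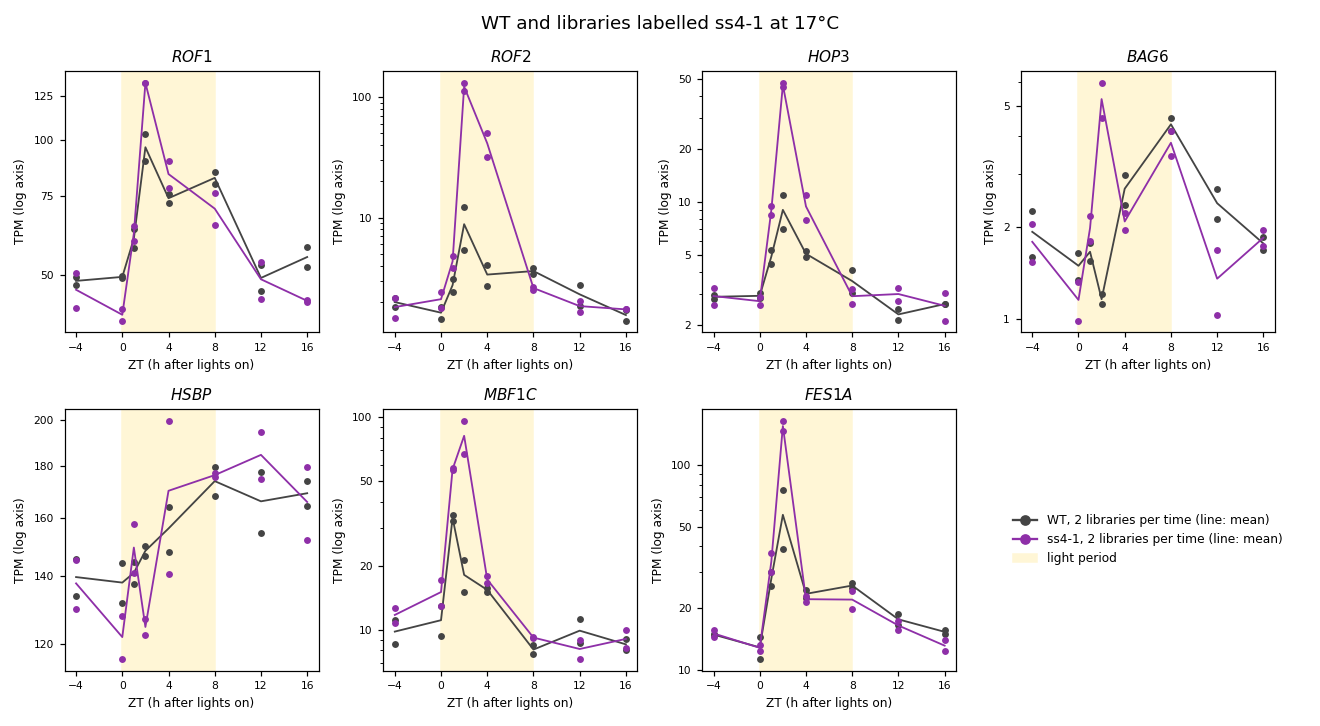
TPM (log axis) of each gene against the time of day (ZT, in h after lights on) in WT and in libraries labelled *ss4-1* at 17°C, with 1 point per library and lines through the mean of the 2. At ZT2 both *ss4-1* libraries lie above both WT libraries in 6 genes, and below them for *HSBP*, which was not called. At ZT4 *ROF2* is still at 50.6 and 32.1 TPM in *ss4-1* against 4.01 and 2.73 in WT.

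The difference lasted longer for 2 of the genes. At ZT4 *ROF2* was at 4.01 and 2.73 TPM in WT and at 50.6 and 32.1 in *ss4-1* (3.66 ± 0.28, adjusted p = 6.08e-09), and *HOP3* was at 4.85 and 5.26 in WT and at 11 and 7.85 in *ss4-1* (1.02 ± 0.19, adjusted p = 0.00512), with 2.88% of all genes higher. Without replicate 2 of WT, *HOP3* did not pass (1.05, adjusted p = 0.0507). The other 5 genes did not pass at ZT4. *HSBP*, at 141 and 200 TPM in *ss4-1*, had a log2FC of 0.32 there, and without replicate 1 of *ss4-1* it passed (0.50, adjusted p = 0.0346).
In edgeR no member differed between the genotypes at the other 6 times. At ZT1 *HOP3* was at 5.34 and 4.39 TPM in WT and at 8.38 and 9.50 in *ss4-1* (0.96 ± 0.19, adjusted p = 0.0613). There 3 members had an unadjusted p under 0.05 and DESeq2 called 1, with 0.0532% of all genes called by edgeR. At ZT−4, ZT0, ZT8, ZT12, and ZT16 the share of all genes called was 0.0483%, 0.0290%, 0.00967%, 2.99%, and 0.0193%, the number of members at an unadjusted p under 0.05 was 0, 2, 0, 2, and 1, and DESeq2 called 0. *BAG6* passed at ZT12 without replicate 1 of WT (−0.88, adjusted p = 0.0122). In the fit of all libraries it was at 2.13 and 2.67 TPM in WT and at 1.03 and 1.68 in *ss4-1* at this time (−0.68 ± 0.23, adjusted p = 0.0874).
Whether the genotype difference itself changed between ZT0 and ZT2 was tested as an interaction. It did for 5 members (0.111% of all genes higher): *ROF2* (3.44 ± 0.49, adjusted p = 0.000499), *BAG6* (2.57 ± 0.33, adjusted p = 0.000118), *HOP3* (2.42 ± 0.28, adjusted p = 3.32e-05), *MBF1C* (1.52 ± 0.31, adjusted p = 0.035), and *FES1A* (1.39 ± 0.28, adjusted p = 0.035). *ROF1* missed the threshold (0.70 ± 0.15, adjusted p = 0.0629). The interactions of *MBF1C* and *FES1A* kept their direction when single libraries were left out, but often not their call. *MBF1C* did not pass without any of 6 of the 8 libraries, with values from 1.19 (adjusted p = 0.396, without replicate 2 of *ss4-1* at ZT2) to 1.72 (adjusted p = 0.0979, without replicate 2 of *ss4-1* at ZT0), and *FES1A* without any of 5, from 1.22 (adjusted p = 0.519, without replicate 1 of WT at ZT0) to 1.54 (adjusted p = 0.0757, without replicate 2 of WT at ZT0). *ROF2* was lost without replicate 2 of WT at ZT0 (3.19, adjusted p = 0.0778).

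Among the genes that work with the members, the same comparison at ZT2 called 6 of 13 partners higher, with *HSFA2* (4.08 ± 0.28, adjusted p = 6.33e-10) and *HSP90.1* (3.21 ± 0.26, adjusted p = 7.59e-09) the largest. *HSP70* was at 39.2 and 63.2 TPM in WT and at 311 and 313 in *ss4-1* (2.63 ± 0.29, adjusted p = 2.1e-06). Of 11 other cochaperones 3 were higher, with the J-domain protein gene *DNAJ* (AT2G20560, 2.01 ± 0.21, adjusted p = 9.85e-07) and *SGT1A* (0.84 ± 0.11, adjusted p = 4.04e-05) the largest. None of the 12 relatives was called in either direction, and none of the 7 tissue markers tested, with 0.449% of all genes higher and 0.0822% lower. *HOP1* and *MBF1A* were picked as examples after their values were seen. *HOP1* was at 37.9 to 39.2 TPM in WT and at 36.7 to 39.4 in *ss4-1*, and *MBF1A* at 164 to 168 and at 155 to 156. The median log2FC was 2.14 over the members, 0.72 over the partners, 0.23 over the cochaperones, 0.02 over the relatives, and 0.005 over all genes.

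The mutants *pgm*, *ss3/ss4*, and *ss3/ss4/pgm* were compared with the same WT libraries at ZT0 and ZT2, so these comparisons and that of *ss4-1* share their controls. They also differ from WT in a large part of the transcriptome. Nothing in the labels says whether they were grown or sequenced together with these WT libraries. Genotype and batch therefore cannot be told apart in their differences from WT. Tissue markers were among the genes called. Of 7 markers tested at ZT0, 2 were lower in *ss3/ss4* (28.1% of all genes were). In *pgm* 4 were higher and 2 lower (28.1% and 28.9% of all genes), and in *ss3/ss4/pgm* 3 were higher and 2 lower (30.6% and 30.7%). At ZT2, 1 was lower in *ss3/ss4* (27.4%). In *pgm* 2 were higher and 1 lower (19.4% and 21%), and in *ss3/ss4/pgm* 3 were higher and 1 lower (19.7% and 21.7%). The part of this in the results below was not tested.
At ZT2 in *ss3/ss4*, 5 members were overexpressed (26.6% of all genes were). *MBF1C* was at 15.0 and 21.2 TPM in WT and at 239 and 265 in *ss3/ss4* (3.78 ± 0.15, adjusted p = 2.2e-12). *ROF2* was at 124 and 129 in *ss3/ss4* (3.98 ± 0.22, adjusted p = 8.79e-11). Both genes lie far above their WT libraries, *MBF1C* also above its *ss4-1* libraries (67.5 and 96.3).
*HOP3* was at 45.6 and 53.2 TPM in *ss3/ss4* (2.46 ± 0.15, adjusted p = 2.51e-10), *BAG6* at 7.23 and 5.96 (2.61 ± 0.23, adjusted p = 2.3e-08), and *FES1A* at 147 and 134 (1.32 ± 0.20, adjusted p = 2.48e-05). These are close to the *ss4-1* levels of the same genes. *ROF1* was lower than in WT, at 70.4 and 63.7 against 89.6 and 103 (−0.48 ± 0.12, adjusted p = 0.00177, with 27.4% of all genes lower). *HSBP*, at 129 and 112, did not pass (−0.17 ± 0.11, adjusted p = 0.205).

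**Figure D3:**
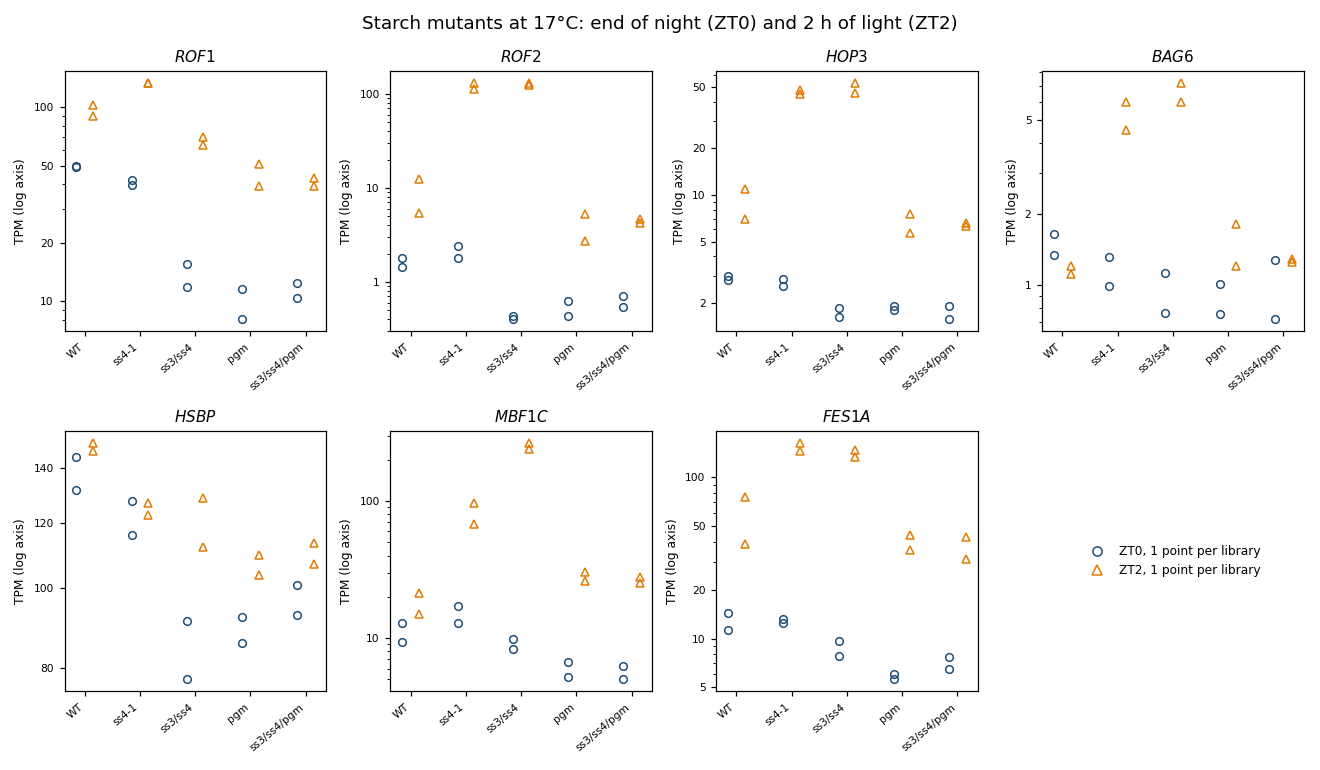
TPM (log axis) of each gene at ZT0 (circles) and ZT2 (triangles) at 17°C in WT and in libraries of 4 mutant labels, with 1 point per library and 2 libraries per group. At ZT2 *ROF2* is at 113 to 132 TPM in *ss4-1* and *ss3/ss4* and at 2.73 to 12.3 in the other groups.

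Adding *pgm*, which blocks starch synthesis at an earlier step, to *ss3/ss4* gave lower levels at ZT2 of all the members but *HSBP*. Between *ss3/ss4/pgm* and *ss3/ss4* 6 members were lower (13.6% of all genes were). *ROF2* was at 4.66 and 4.21 TPM in *ss3/ss4/pgm* (−4.53 ± 0.24, adjusted p = 8.75e-11) and *MBF1C* at 25.2 and 27.9 (−2.95 ± 0.15, adjusted p = 4.95e-11). *HOP3* was at 6.56 and 6.30 (−2.62 ± 0.16, adjusted p = 4.53e-10), *BAG6* at 1.26 and 1.29 (−2.16 ± 0.23, adjusted p = 1.35e-06), and *FES1A* at 42.4 and 31.2 (−1.61 ± 0.21, adjusted p = 1.89e-05). For these 5 genes the libraries of the 2 genotypes are far apart. *ROF1* was at 39.3 and 43.4 (−0.46 ± 0.12, adjusted p = 0.00853) and was lost without replicate 1 of *ss3/ss4* (−0.37, adjusted p = 0.0787) or of *ss3/ss4/pgm* (−0.45, adjusted p = 0.0685). Of 7 markers 2 were higher and 2 lower in *ss3/ss4/pgm* (12.4% and 13.6% of all genes were), among them *TIP2;3* (1.21 ± 0.32, adjusted p = 0.00983) and *CRA1* (−6.16 ± 1.72, adjusted p = 0.0128). *CRA1* was at 34.9 TPM in replicate 1 of *ss3/ss4* and at 0.106 in replicate 2, and the part of tissue make-up in the differences of the members was not tested. A comparison of the same genotypes at ZT0, added after the data were seen, called no member in edgeR or DESeq2, with 1 at an unadjusted p under 0.05 and with 8.67% of all genes higher and 9.72% lower.
The partners followed the same direction. Between *ss3/ss4/pgm* and *ss3/ss4* at ZT2, 9 of 13 partners and 6 of 11 other cochaperones were lower, and 1 of 12 relatives was lower and 1 higher (13.6% of all genes were lower and 12.4% higher). *HSP70* was at 302 and 295 TPM in *ss3/ss4* and at 36.9 and 41.2 in *ss3/ss4/pgm* (−2.69 ± 0.15, adjusted p = 1.77e-10), and *HSP90.1* differed by −4.30 ± 0.24 (adjusted p = 2.06e-10). The median log2FC was −2.16 over the members, −1.15 over the partners, −0.31 over the cochaperones, −0.01 over the relatives, and −0.006 over all genes. In *ss3/ss4* against WT at ZT2, 10 partners, 5 cochaperones, and 4 relatives were higher and 2, 2, and 4 were lower. Of all genes 26.6% were higher and 27.4% lower, so the counts of relatives are near these shares. The relatives *MBF1B* (1.42 ± 0.11, adjusted p = 3.52e-09, at 282 to 285 TPM against 113) and *FES1C* (1.80 ± 0.15, adjusted p = 1.31e-08) were among the higher ones, though neither was called in *ss4-1*. Both were also called higher than WT at ZT2 in *pgm* (1.35 ± 0.11 and 0.92 ± 0.17, with 19.4% of all genes higher). The same held in *ss3/ss4/pgm* (1.43 ± 0.11 and 0.70 ± 0.17, with 19.7%).
Against WT at ZT2, *pgm* and *ss3/ss4/pgm* each differed in *MBF1C* and *ROF1*. *MBF1C* was at 26.1 and 30.5 TPM in *pgm* (0.85 ± 0.18, adjusted p = 0.000969, with 19.4% of all genes higher) and higher in *ss3/ss4/pgm* too (0.83 ± 0.18, adjusted p = 0.00114, with 19.7%). *ROF1* was lower, at 39.1 and 50.8 TPM in *pgm* (−0.94 ± 0.12, adjusted p = 5.57e-06, with 21.0% lower) and by the same amount in *ss3/ss4/pgm* (−0.94 ± 0.12, adjusted p = 5.41e-06, with 21.7%). *ROF2* was lower in *pgm*, at 2.73 and 5.29 (−0.87 ± 0.27, adjusted p = 0.0168), but was lost without replicate 2 of WT (−0.08, adjusted p = 0.829) or replicate 1 of *pgm* (−0.59, adjusted p = 0.173). Without replicate 1 of WT further members passed: in *pgm* *HOP3* (−0.52, adjusted p = 0.0245) and *FES1A* (−0.68, adjusted p = 0.0073), and in *ss3/ss4/pgm* *ROF2* (−0.97, adjusted p = 0.000962) and *FES1A* (−0.67, adjusted p = 0.00712).

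Before lights on the order was different. At ZT0 *ROF1* was lower in each of the 3 mutants, at 8.09 to 15.5 TPM in their 6 libraries against 49.3 and 49.8 in WT. Its log2FC was −1.55 ± 0.13 in *ss3/ss4* (adjusted p = 8.43e-09, with 28.1% of all genes lower), −1.96 ± 0.15 in *pgm* (adjusted p = 2.45e-09, with 28.9%), and −1.79 ± 0.13 in *ss3/ss4/pgm* (adjusted p = 1.25e-09, with 30.7%). In the 3 mutants genotype and batch cannot be told apart for this difference. In *ss4-1* *ROF1* was at 39.6 and 42.0 TPM at this time, which did not pass.
*ROF2* at ZT0 was at 0.437 and 0.400 TPM in *ss3/ss4*, against 1.45 and 1.80 in WT (−1.65 ± 0.55, adjusted p = 0.0151), and was lost without replicate 2 of WT (−1.40, adjusted p = 0.109), replicate 1 of *ss3/ss4* (−1.68, adjusted p = 0.0927), or replicate 2 of *ss3/ss4* (−1.62, adjusted p = 0.0507). *HSBP* was at 91.3 and 77.4 TPM there against 132 and 144 (−0.35 ± 0.12, adjusted p = 0.0145), and was lost without replicate 2 of either (−0.22, adjusted p = 0.202, without that of WT, and −0.27, adjusted p = 0.106, without that of *ss3/ss4*). *HSBP* was as low in TPM in *pgm* (85.8 and 92.2), but its log2FC there was −0.04 ± 0.12. The TMM factors that scale the counts were 0.876 and 0.809 in *pgm* and 1.158 and 1.141 in WT. Their share in the gap between TPM and the log2FC was not tested. The TPM levels of the members in these mutants at ZT0 are therefore read beside the test.
The rise from ZT0 to ZT2 was present in each mutant, in comparisons added after the data were seen. Markers were called here too, and their part was not tested. Of 7, 2 were higher and 1 lower at ZT2 in *ss3/ss4* (24.9% and 26.8% of all genes were). In *pgm* 1 was higher and 4 lower (29.8% and 28.5%), and in *ss3/ss4/pgm* 1 was higher and 1 lower (31.2% and 31%). *TIP2;3* was lower in each (−1.46 ± 0.30, −2.19 ± 0.28, and −2.03 ± 0.24). In *ss3/ss4* all 7 members rose (24.9% of all genes did), by a log2FC of 8.10 ± 0.32 for *ROF2* and 4.59 ± 0.18 for *HOP3*, and the rise of *HSBP* (0.33 ± 0.12, adjusted p = 0.0235) was lost without replicate 2 at ZT0 (0.25, adjusted p = 0.146) or either replicate at ZT2 (0.35, adjusted p = 0.0681, and 0.32, adjusted p = 0.0655). In *pgm* (29.8%) and *ss3/ss4/pgm* (31.2%) 5 rose, in both cases *ROF1*, *ROF2*, *HOP3*, *MBF1C*, and *FES1A*. *FES1A* rose by 2.68 ± 0.32 in *pgm* and 2.41 ± 0.26 in *ss3/ss4/pgm*, and *MBF1C* by 1.87 ± 0.25 and 2.05 ± 0.21. *BAG6* did not pass in either (0.63 ± 0.33 and 0.30 ± 0.28), and *HSBP* passed only in *ss3/ss4/pgm* without replicate 1 at ZT0 (0.34, adjusted p = 0.0443) or with a filter of at least 10 counts in every library (0.32, adjusted p = 0.0228).
The test of whether the *ss3/ss4* difference from WT grew between ZT0 and ZT2 called 6 members (9.35% of all genes higher). The interaction was 5.63 ± 0.57 for *ROF2* (adjusted p = 1.63e-06), 3.77 ± 0.28 for *MBF1C* (adjusted p = 3.8e-08), 2.95 ± 0.35 for *BAG6* (adjusted p = 8.92e-06), 2.88 ± 0.29 for *HOP3* (adjusted p = 1.23e-06), 1.55 ± 0.35 for *FES1A* (adjusted p = 0.00358), and 1.07 ± 0.17 for *ROF1* (adjusted p = 0.000216). For *ROF1* this is a lower level at both times that was closer to WT at ZT2. *HSBP* did not pass (0.18 ± 0.16).

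In liquid culture the libraries of each inhibitor label went against each other, and this must be stated before their values. Over 10421 genes, replicate 1 labelled DCMU had a correlation of log2 CPM (counts scaled to the library total) of 0.985 at 22°C and 0.981 at 27°C with replicate 2 labelled DBMIB, and replicate 1 labelled DBMIB had 0.987 and 0.989 with replicate 2 labelled DCMU. Replicates with the same label had 0.746 (DCMU) and 0.750 (DBMIB) at 22°C and 0.704 and 0.708 at 27°C. The labels were kept, each library is given on its own, and the cause was not tested.
In 6 members the 2 libraries of each label lay on opposite sides of both mock libraries, at both temperatures, as they did in 9.65% of 17500 genes. Replicate 1 labelled DBMIB and replicate 2 labelled DCMU were above the mock libraries for *ROF1*, *ROF2*, *HOP3*, *BAG6*, *MBF1C*, and *FES1A*, and the other 4 libraries were below them. *BAG6* had the largest fold of these above the mock mean. At 22°C it was at 6.03 and 5.25 TPM in the mock libraries, 2.39 and 124 in replicates 1 and 2 of DCMU, and 115 and 2.37 in those of DBMIB. At 27°C these values were 40.4 and 30.4, 3.76 and 531, and 746 and 8.30. The gene that was lowest of the 7 at ZT1 in the time courses thus reached levels within the range of the others.
*ROF2* had the largest fold below the mock. At 22°C it was at 44.7 and 65.7 TPM with mock, 2.91 and 256 with DCMU, and 239 and 3.72 with DBMIB. At 27°C it was at 703 and 594, 27.6 and 1427, and 1636 and 58.6. The lower libraries are 14.8 and 19 times under the mock mean at 22°C, and 11.1 and 23.5 times under it at 27°C.
*MBF1C* was at 173 and 238 TPM with mock at 22°C, 28.4 and 871 with DCMU, and 906 and 27.8 with DBMIB. *FES1A* was at 86.2 and 115 with mock, 10.8 and 625 with DCMU, and 591 and 12.1 with DBMIB. *HOP3* was at 47.9 and 52.2, 10.9 and 225, and 233 and 10 in the same order, and *ROF1* at 113 and 121, 33.9 and 222, and 229 and 34.5. The order of the libraries is the same in each of these genes. *HSBP* was not on opposite sides. It was between 61.3 and 106 TPM in all 16 libraries and in TPM was below both mock libraries in 6 of the 8 inhibitor libraries. In CPM scaled by the TMM factors this did not hold for 2 of these 6. Replicate 1 of DBMIB at 22°C was at 36.07 (mock 33.94 and 35.73) and replicate 1 of DCMU at 27°C at 36.56 (mock 32.34 and 33.89). The others of the 6 stayed below.

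**Figure D4:**
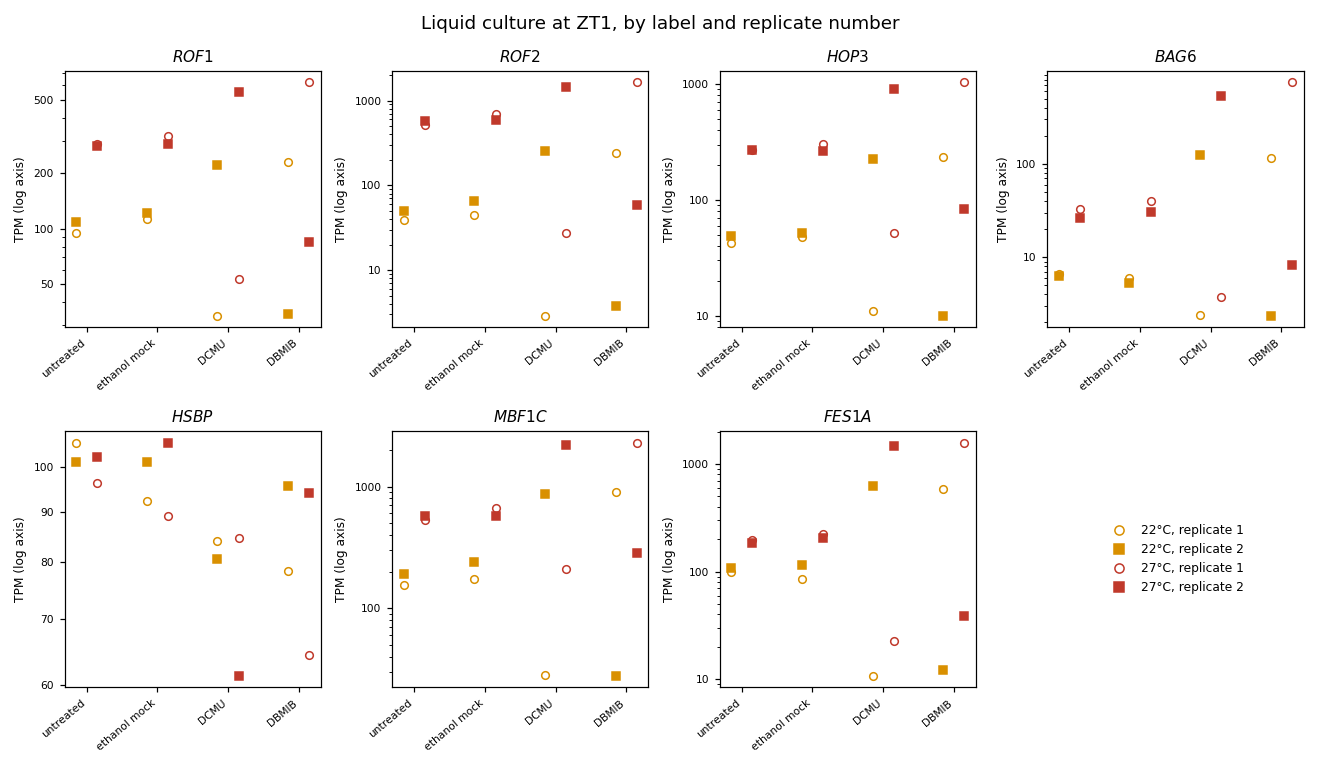
TPM (log axis) of each gene in the 16 liquid culture libraries at ZT1, by label, temperature (colour), and replicate number (circles for replicate 1, squares for replicate 2). In 6 genes the replicates of DCMU and of DBMIB lie on opposite sides of the mock libraries, and *HSBP* stays between 61.3 and 106 TPM.

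With the labels as given, edgeR called no member against mock, with none at an unadjusted p under 0.05 and none called by DESeq2. The share of all genes called was 3.49% for DCMU and 1.66% for DBMIB at 22°C, and 6.48% and 6.57% at 27°C. The standard errors show the disagreement of the replicates. For *BAG6* the log2FC was 3.78 ± 2.51 for DCMU at 22°C and 3.67 ± 2.50 for DBMIB, and for *HSBP* −0.11 ± 0.17 and 0.06 ± 0.17. Within replicate number 1, without a test, the difference of *BAG6* from the mock library of that number at 22°C was −1.22 for DCMU and 4.57 for DBMIB on the log2 CPM scale, and within number 2 it was 4.83 and −1.10. For *ROF2* these differences were −3.90 and 2.77, and 2.20 and −4.15.
The untreated and mock replicates lay close together, with a correlation of 0.989 between untreated and of 0.987 between mock replicates at 22°C, and they repeat the comparison of 27°C with 22°C at ZT1 in another culture. In the fit of all 16 libraries no member passed (0.0148% of all genes were called higher in untreated seedlings and 0.0246% with mock), with none at an unadjusted p under 0.05 or called by DESeq2. That fit takes its estimate of the spread from the inhibitor libraries too. In a fit without them, added after the data were seen and with 19838 genes tested, 6 of the 7 were higher at 27°C in untreated seedlings (12% of all genes) and 6 with mock (14.0%).
Without treatment *ROF2* was at 39.4 and 49.6 TPM at 22°C and at 510 and 568 at 27°C (log2FC 3.46 ± 0.20, adjusted p = 1.22e-07). *HOP3* was at 42.3 and 48.4 and at 270 and 271 (2.48 ± 0.12, adjusted p = 2.58e-08), and *BAG6* at 6.69 and 6.30 and at 33.1 and 26.5 (2.13 ± 0.14, adjusted p = 5.5e-07). The replicates of these 3 genes are close together beside the gap between temperatures. *MBF1C* differed by 1.53 ± 0.15 (adjusted p = 1.26e-05), *ROF1* by 1.38 ± 0.11 (adjusted p = 2.48e-06), and *FES1A* by 0.78 ± 0.13 (adjusted p = 0.00076). *HSBP* did not pass (−0.16 ± 0.09, adjusted p = 0.256).
With mock the differences were 3.41 ± 0.20 for *ROF2*, 2.56 ± 0.14 for *BAG6*, 2.40 ± 0.12 for *HOP3*, 1.41 ± 0.14 for *MBF1C*, 1.28 ± 0.11 for *ROF1*, 0.97 ± 0.13 for *FES1A*, and −0.07 ± 0.09 for *HSBP*. In the time course, with 1 library per temperature, *ROF2* and *HOP3* also had log2 ratios above those of *MBF1C* and *FES1A* at this time. For every gene the ratio there (of TPM + 1) was below both differences in liquid culture. *FES1A* had 0.10 in the time course, against 0.78 untreated and 0.97 with mock. *MBF1C* had 0.65, against 1.53 and 1.41. The cause of this gap was not tested. Ethanol against untreated called no member in either fit, with adjusted p from 0.683 to 0.999 in the fit without the inhibitor libraries.

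**Figure D5:**
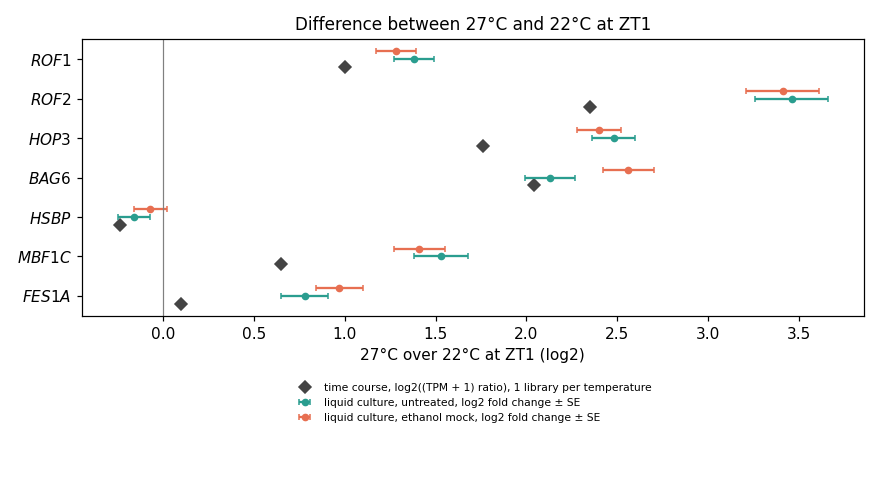
Difference between 27°C and 22°C at ZT1 for each gene on the log2 scale, in the WT time course (diamonds, TPM + 1, 1 library per temperature) and in untreated and mock liquid culture (circles with SE, 2 libraries per group, fit without the inhibitor libraries). *ROF2* is at 2.35 to 3.46, and *HSBP* is at −0.24 to −0.07.

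How the members varied together was described over the 32 libraries of WT and *ss4-1* at 17°C, which share their sampling times, by Pearson's correlation of log2 CPM. *HOP3* had 0.92 with both *ROF2* and *FES1A*, and *ROF1* had 0.87 with *FES1A* and 0.85 with *ROF2*. *MBF1C*, which was highest at ZT1 in WT, had 0.83 with *HOP3* and 0.52 with *ROF1*. *BAG6* had from 0.12 to 0.58 with the others, and *HSBP* from −0.30 to 0.12.
Among all 20691 other genes tested, those most like *HOP3* were *HSP90.1* (0.975), which encodes the heat-induced HSP90 that HOP proteins bind, and the J-domain gene AT2G20560 (0.959). For *ROF1* they were *HSP81-3* (0.965), another HSP90 gene, and *APR1* (0.958), for *FES1A* *CLPB4* (0.940) and AT4G28480 (0.936), and for *ROF2* AT1G72660 (0.950) and AT5G12110 (0.949). *MBF1C* was most like AT2G27580 (0.929) and *HSP101* (0.917). The genes most like *BAG6* were further from it (AT1G71000 at 0.820 and AT3G46720 at 0.748), and those most like *HSBP* were *FKBP15-1* (0.909) and *MAGO* (0.904).
The span of each gene over all 76 libraries orders the 7. *HSBP* went from 61.3 to 200 TPM, a 3.26-fold span, and *ROF1* from 8.09 to 620, a 76.7-fold span. *FES1A* spanned 283-fold, *MBF1C* 458-fold, *HOP3* 657-fold, *BAG6* 1038-fold, and *ROF2* 4090-fold, from 0.400 to 1636 TPM. The highest library of the 6 genes other than *HSBP* was in each case replicate 1 labelled DBMIB at 27°C. Since the lowest values of *ROF2* rest on few counts (3 to 17 in the 6 libraries of *pgm*, *ss3/ss4*, and *ss3/ss4/pgm* at ZT0), its span is the least certain.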

How the data were processed

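Reads were aligned and counted by the authors. The submitters' processing notes name FastQC, Trimmomatic, TopHat, Picard, and TAIR10, without versions, and counting rules and strand are not given in the sources used here. The labels name a stranded and another library kit without assigning libraries to them. The authors deposited a count of reads per gene, without normalization, with TPM beside it, for 60 libraries. For the other 16 (WT at 22°C and 27°C) the authors deposited TPM in a single table, where the columns for ZT−12 and ZT−8 were read as ZT12 and ZT16, the same hours of a 24 h day. Each library is from a pool of 25 seedlings, per the labels. The genes matched the RefSeq annotation by locus for 32810 of 33557 genes. Reads shared by related genes such as *ROF1* and *ROF2* may have been split between them.

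The count tests were run in R 4.3.3 by edgeR 4.0.16 (TMM, filterByExpr, glmQLFit, and glmQLFTest). There were 3 fits: WT and *ss4-1* at 17°C (32 libraries, 20692 genes), WT and the starch mutants at ZT0 and ZT2 (16 libraries, 20130 genes), and liquid culture (16 libraries, 20291 genes), each with 1 estimate of the spread for all groups. The standard error is the log2FC divided by the square root of the F statistic. TPM with 1 library per point was compared as log2(TPM + 1) without a test, which understates changes of low genes. DESeq2 1.42.0, its size factors, other filters, the replicate block, the groups compared alone, and leaving out each library were alternatives. Replicate pairs differed beyond sampling noise (chi-square over its degrees of freedom 2.76 to 222), and each library was counted once. The deviations of same-numbered libraries had a median r of 0.035 (15 of 120 pairs of groups over 0.1), 0.004 (2 of 28), and 0.074 (10 of 28, from −0.841 to 0.84 in liquid culture). As not every pair was over 0.1, numbers were not used as pairs. The tests were also run on simulated counts for 1 comparison of each fit, with the same spread for every gene. That spread was not taken from these libraries, so the simulation does not check the tests for these data, least of all for liquid culture. The members, the gene lists, and the rule for naming (all members, the 2 most like each, *HSP70*, *HSFA2*, and the 2 largest calls of a list) were chosen with earlier results of these data known.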

Additional observations from a re-analysis of the deposited data

Results flagged for a closer look

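The difference between the libraries labelled *ss4-1* and WT at 17°C was larger at ZT2 than at ZT0 for 5 members, by the interaction term of the edgeR fit. It was 3.44 for *ROF2*, 2.57 for *BAG6*, 2.42 for *HOP3*, 1.52 for *MBF1C*, and 1.39 for *FES1A* on the log2 scale, and *MBF1C* and *FES1A* lost their call, but not their direction, when single libraries were left out (1.19 to 1.72 and 1.22 to 1.54 where the call was lost).

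The difference between *ss3/ss4* and WT also changed between ZT0 and ZT2, for 6 members. The interaction was 5.63 for *ROF2*, 3.77 for *MBF1C*, 2.95 for *BAG6*, 2.88 for *HOP3*, 1.55 for *FES1A*, and 1.07 for *ROF1*, which was lower than WT at both times and closer to it at ZT2. These tests share the WT libraries with those of *ss4-1*, and *HSBP* passed in neither.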

How the results depend on the processing

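No result changed direction among those called. Of the counts of members (called, past the TPM limit, or with a promoter element), 360 values under alternatives stayed within 1.5 times the count reported and 29 did not. The 360 include counts of 0 that stayed at 0. A count can also stay within this limit while a call is lost, as for *ROF1* at ZT2 in *ss4-1* (8 of 10 alternatives). For single members, 49 calls were lost and 59 gained over all alternatives. With no filter on low counts, 3 members were called at ZT1 in *ss4-1*, 1 at ZT12 in *ss4-1*, 3 in *pgm* at ZT0, and 3 in *ss3/ss4/pgm* at ZT0. With the groups compared alone in the fit, 2 were called at ZT1 in *ss4-1*, 3 in *pgm* and 3 in *ss3/ss4/pgm* at ZT0, and 6 at 27°C against 22°C in both untreated and mock liquid culture, as without the inhibitor libraries (6 and 6, an alternative chosen after seeing the data). DESeq2 called 1 at ZT1 in *ss4-1* and 2 in *ss3/ss4/pgm* at ZT0, and a filter of at least 10 counts in every library also called 2 there. That filter removed *ROF2* and *BAG6* from the fit of the starch mutants. With the replicate number as a block, which pairs libraries by number only, *ROF1* was lost at ZT2 in *ss4-1* (adjusted p = 0.0507), 2 members were called in *ss3/ss4/pgm* at ZT0 (*ROF2* joined *ROF1*, adjusted p = 0.0469), and no other call of a member changed. In the interaction of *ss4-1*, the groups compared alone lost *MBF1C* (adjusted p = 0.0912) and *FES1A* (0.142) and gained *ROF1* (0.0306), which DESeq2 also called (0.00373). At 1.5-fold, 5 members were higher at 27°C than at 22°C at ZT1 by TPM, and with 2 units 4 promoters held a heat shock element.

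Leaving out each library in turn gave 1 to 3 members called at ZT4 in *ss4-1*, 0 to 1 at ZT12, 2 to 5 in the interaction of *ss4-1*, 2 to 5 from ZT1 to ZT2 in WT, 1 to 3 in *ss3/ss4* at ZT0, 2 to 5 in *pgm* at ZT2, and 2 to 4 in *ss3/ss4/pgm* at ZT2. The lone library of a group is then assumed to vary like the other groups. *BAG6*, at 0.719 to 7.23 TPM at 17°C, and *ROF2* at ZT0 rest on few counts, and small differences in them were not detectable at this depth.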
